A study of Bos taurus with 8 samples.

Results

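The 85 nuclear genes of the respiratory chain complexes were taken from a table of 32640 bovine genes by their symbols. The rule kept every gene named as a numbered NDUFA, NDUFB, NDUFC, NDUFS or NDUFV subunit, SDHA to SDHD, CYC1, every UQCR gene, the lettered COX4 to COX8 genes and every ATP5 gene, and used no measured value. It gave 36 genes of complex I, 4 of complex II, 9 of complex III, 18 of complex IV and 18 of complex V (ATP synthase), where NDUFA4 was placed in complex IV in spite of its complex I symbol. Of these, 82 were tested and 74 had at least 1000 counts in every library. COX4I2, COX6A2 and COX8B fell under the filter on low counts.

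RNA was sequenced from 4 bovine embryonic stem cell (bESC) lines, A, C, D and E, all of XX genotype, derived from early or full blastocysts and kept in low oxygen (5% O2). Each line gave 1 library from cells on MEF, irradiated mouse embryonic fibroblasts used as a feeder layer, at passage 15 to 17, and 1 from feeder-free cells on vitronectin (VTN), a purified attachment protein, at passage 20 to 22. Titles of both kinds of library name the NBFR medium with an A, while the methods describe Activin A as an addition for feeder-free culture, so feeders, matrix, passage and possibly Activin A changed together and cannot be told apart. Reads of a pure MEF sample that aligned to the cow genome were taken out of the counts of cells on MEF, a step without a counterpart for feeder-free cells, so its share in a difference between conditions cannot be told apart either. The comparison asked how the subunit transcripts of bESCs changed when the same lines left MEF in low oxygen.

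Respiratory chain complexes sit in the inner mitochondrial membrane. Complex I takes electrons from NADH and complex II from succinate, complex III passes them from ubiquinol to cytochrome c, and complex IV hands them to oxygen, while complex V uses the proton gradient that complexes I, III and IV build to make ATP. Most subunits are encoded in the nucleus and imported, whereas a small set, found in every complex but II, is encoded by mitochondrial DNA. Primed pluripotent stem cells are known to rely more on glycolysis than on respiration, and their mitochondria are known to be less mature than those of differentiated cells.

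Total counts ran from 44268717 to 54296425 on MEF and from 49671478 to 102351560 in feeder-free conditions, the highest being line D. All 6 embryonic stem cell markers were present, at a summed 4282 to 5053 CPM on MEF and 3749 to 4534 CPM in feeder-free conditions, and 5 of them had log2 fold changes below 0 (median -0.32). SALL4 was called lower in both fits (-0.58, edgeR adjusted p = 0.0426 on condition alone), and SOX2 and LIN28B with line as a term. That is 1 of 6 lower on condition alone, against 1.18% of all tested genes. With line as a term it is 3 of 6, against 8.12%. None of the 6 also reached the study's fold change of 1.5 in either fit. The study, which required both thresholds, reports no difference in the pluripotency core between these conditions. Fibroblast markers, 12 of 14 of them tested, summed to 358 to 460 CPM on MEF and 182 to 1154 CPM in feeder-free conditions. Of these 12, 7 had log2 fold changes above 0 (median 0.51). With line as a term, COL3A1 and POSTN were called higher and COL1A2 lower, against 7.67% and 8.12% of all tested genes. None was called on condition alone, while the untested TWIST2 and FAP were at 0 in every feeder-free library. The part of these markers in the results was not tested. In bulk RNA, fewer cells of a type and less RNA per cell cannot be told apart. CPM here are counts per 1e6 counts of the library total after TMM scaling, and values by line are given in the order A, C, D, E.

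Nuclear respiratory chain transcripts were mostly slightly higher in feeder-free bESCs. Of the 82 tested genes, 71 had values above 0 on the log2 fold change scale and 11 below, with a median of 0.22 against 0.01 over all 15744 genes tested. That median moved with single libraries, to 0.10 without feeder-free line A (58 members above 0), 0.11 without MEF line D (62) and 0.34 without MEF line A (77). Only NDUFS3, a core subunit of complex I, passed an adjusted p of 0.05 in the edgeR quasi-likelihood fit on condition alone. That is 1 of 82 members higher, where 0.749% of all tested genes passed in that direction. None was lower, where 1.18% of all tested genes were, and at an unadjusted p under 0.05 the members numbered 8 higher and 0 lower in edgeR, against 10.2% and 11.4% of all tested genes, while DESeq2 called 5 higher (against 5.66% of all tested genes) and 0 lower. In the edgeR fit on condition alone, 5 members had a fold change of at least 1.5 (NDUFS3, UQCRB, UQCRQ, NDUFC1 and NDUFA6), and NDUFS3 alone met both thresholds, which 1.73% of all tested genes met in either direction. The counts of members called higher are near the background and are no result about the members.

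The 2 libraries of a line shared much of their variation, and a fit with line as a term (the replicate block) called 13 members higher and 0 lower, against 7.67% of all tested genes higher and 8.12% lower. At an unadjusted p under 0.05 that fit had 37 members higher and 1 lower, against 16.1% and 16.0% of all tested genes. The 13 genes were NDUFS3, NDUFA6, NDUFC1, NDUFB1, NDUFB4, NDUFA2 and NDUFB9 of complex I, UQCRB, UQCRQ and CYC1 of complex III, COX7C of complex IV, and ATP5PF and ATP5F1E of complex V. Their log2 fold changes ran from 0.38 to 0.69, and each gene was higher in all 4 lines. NDUFS3, UQCRB and UQCRQ also reached a fold change of 1.5, which 5.52% of all tested genes did in that direction. These calls moved with the line left out. Without line D the replicate block left 0 members called, while 2.37% of all tested genes were called higher. At an unadjusted p under 0.05, 13 members were higher there. The share of all tested genes at that level is not given for this fit, so that count is no result about the members. Without line A the block called NDUFA6, UQCRQ, CYC1, UQCRB and NDUFS3, against 6.79% of all tested genes. Without line C it called NDUFA6, UQCRQ, UQCRB, NDUFS3 and NDUFC1, against 3.57%, and without line E 21, against 5.72%.

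Within lines, 38 of the 82 members were higher in feeder-free cells in all 4, against 20.2% of all tested genes. Only NDUFV1, SDHA and ATP5F1A were lower in all 4, against 20.7%. All feeder-free libraries lay above all MEF libraries for 7 of the 82 members, NDUFS3, NDUFS1, NDUFA8, UQCRB, CYC1, UQCRFS1 and ATP5F1C. That count is near the 6.21% of all tested genes and is no result about the members. All feeder-free libraries lay below all MEF libraries for NDUFV1 alone, against 8.36%. Of the 13 genes called with the replicate block, 10 had overlapping groups.

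**Figure D1:**
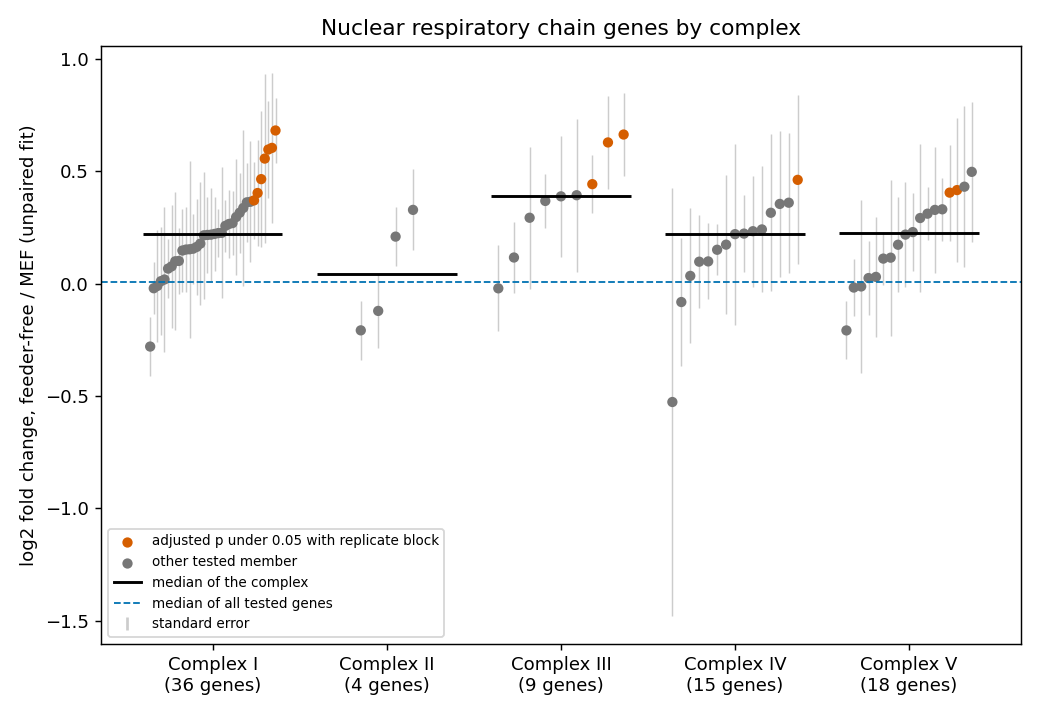
Log2 fold change of feeder-free over MEF for each of the 82 tested genes, by complex, from the fit on condition alone, with standard errors as vertical lines. Orange points passed an adjusted p of 0.05 with the replicate block, black lines are medians of the complexes (0.22, 0.04, 0.39, 0.22 and 0.22 from I to V) and the dashed line is the median of all tested genes.

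Complexes I, IV and V had nearly the same median, while that of complex II was lower and that of complex III higher. Median log2 fold changes were 0.22 for complex I, 0.04 for complex II, 0.39 for complex III, 0.22 for complex IV and 0.22 for complex V. Members above 0 numbered 33 of 36, 2 of 4, 8 of 9, 13 of 15 and 15 of 18. Leaving out 1 library gave medians of 0.11 to 0.33 for complex I, -0.03 to 0.12 for II, 0.24 to 0.48 for III, 0.05 to 0.39 for IV and 0.10 to 0.33 for V. Differences between complexes were not tested, because genes of a complex are not replicates.

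The lines differed in how far their transcripts moved. Median log2 ratios of feeder-free over MEF over the 82 members were 0.27 in line A, 0.18 in C, 0.42 in D and 0.13 in E, while the medians of all tested genes lay between -0.00 and 0.01. In lines A, C, D and E, 65, 71, 78 and 52 members were higher in feeder-free cells. Line D had the highest ratio for 41 members (50% against 18.3% of all tested genes), and line E the lowest for 42 (51.2% against 30.7%). Of 61 members higher in A, C and D, 23 were lower in E, which is 28.0% of the tested members against 6.22% of all tested genes. The feeder-free library of line D was also the deepest, and the part of depth in its ratios was not tested.

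Lines also kept their own levels. On MEF, both lines A and E lay above both C and D for 67 of the 82 members, or 81.7%, against 26.7% of all tested genes. In feeder-free cells the same held for 64, or 78.0%, against 26.3%. Across the 82 members, the deviations of a line's MEF library from the MEF mean correlated with those of its feeder-free library at 0.73 in A, 0.77 in C, 0.74 in D and -0.34 in E. Those are descriptions across genes that share libraries. Over all tested genes the same correlation was 0.42 in line E.

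**Figure D2:**
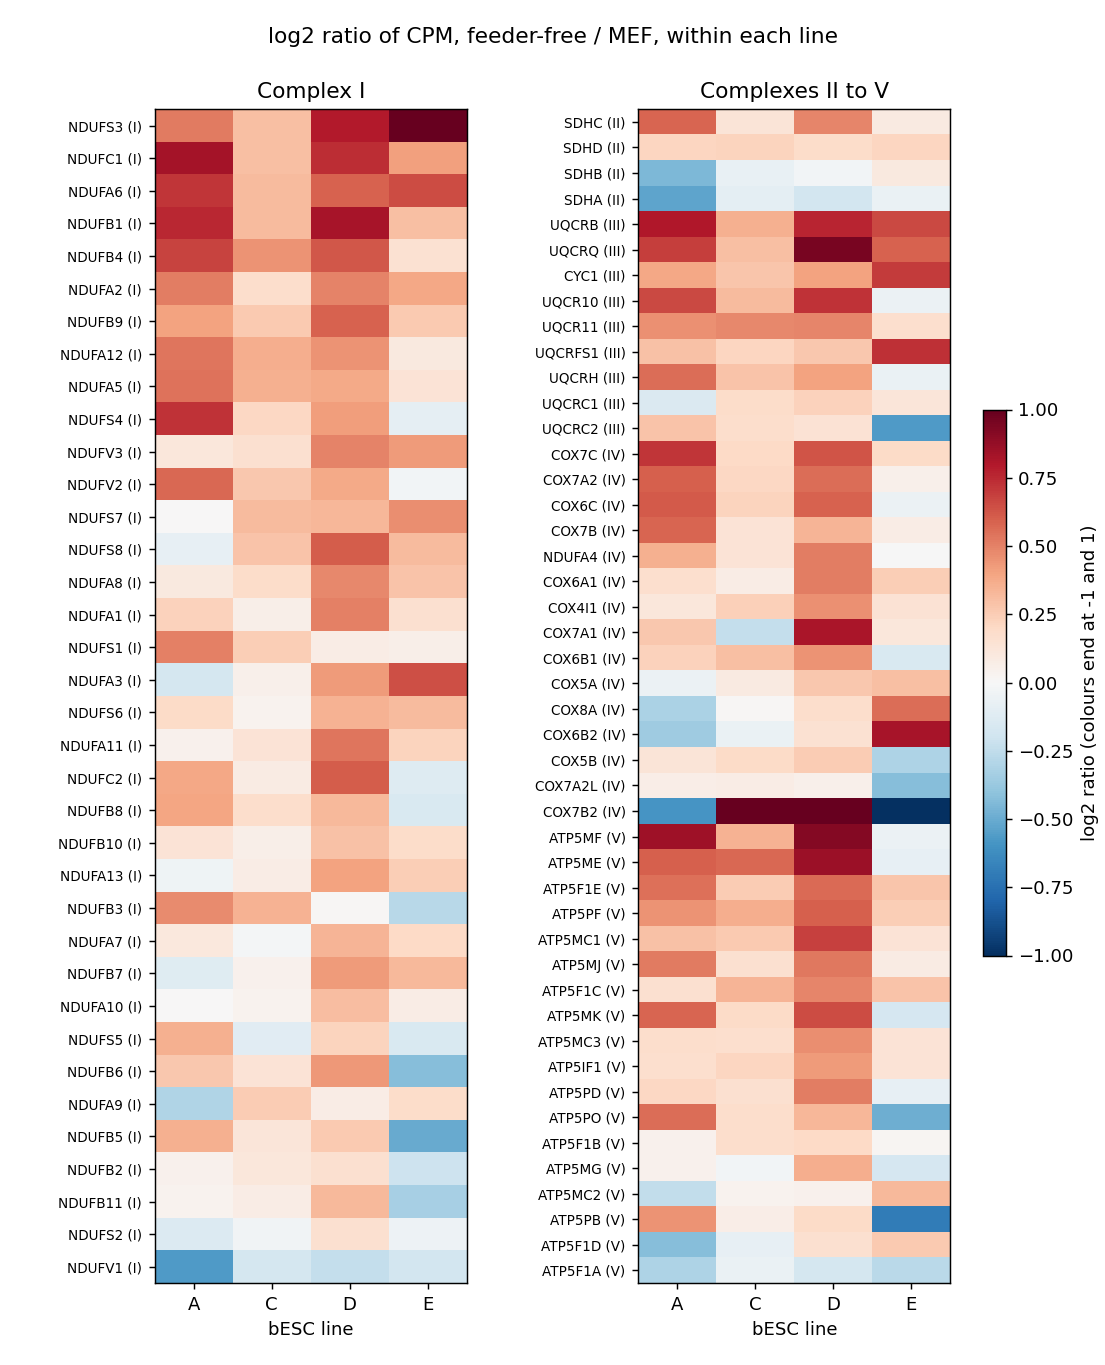
Heat map of the log2 ratio of CPM, feeder-free over MEF, within each bESC line (columns A, C, D, E) for the 82 tested genes (rows, with the complex in parentheses), where red is higher in feeder-free cells and colours end at -1 and 1. The ratio is above 0 in 78 of 82 rows of column D and in 52 of column E.

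Complex I, the NADH dehydrogenase, held the gene called in the fit on condition alone. NDUFS3 (chromosome 15, 77378793 to 77383890 in the RefSeq annotation of ARS-UCD2.0, as for all positions here) encodes a core subunit of the arm that reaches into the matrix. It stood at 41.4, 50.8, 40.8 and 33.7 CPM on MEF and at 59.4, 62.5, 70.5 and 74.7 CPM in feeder-free conditions. Every feeder-free library lay above every MEF library, and the mean went from 41.7 ± 7.01 to 66.8 ± 7.07 CPM (SD, n = 4). The log2 fold change was 0.68 ± 0.14 (SE), with an edgeR adjusted p of 0.0495, and 0.69 ± 0.15 with the replicate block (edgeR adjusted p = 0.0149). Line E moved most, as log2 ratios were 0.52, 0.30, 0.79 and 1.15. The call was lost (edgeR adjusted p of 0.0845 to 0.130) in 7 of the 8 fits that left out 1 library, where at most 1 gene of all tested was called higher, and the log2 fold change stayed at 0.59 to 0.79 in the 8. The gene overlaps KBTBD4, whose own log2 fold change was 0.19.

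NDUFV1 (chromosome 29, 45462753 to 45468972), the core subunit that binds FMN and oxidises NADH, went the other way. It stood at 151, 155, 150.2 and 167 CPM on MEF and at 102, 137, 127 and 147 CPM in feeder-free conditions. The groups did not overlap, each line was lower off feeders, and line A was lowest, yet the log2 fold change of -0.28 ± 0.13 had an edgeR adjusted p of 0.251, and 0.0998 with the replicate block. With a correction for gene span added to the block, NDUFV1 was the single member called lower, against 7.26% of all tested genes. Of the 7 core subunits of the arm, 5 were above 0, with a median of 0.26 over all. NDUFS1, the large iron-sulfur subunit, stood at 78.7, 82.9, 88.4 and 86.5 CPM on MEF and at 112, 98.2, 92.9 and 90.2 CPM in feeder-free conditions. The groups were narrowly separate, and the log2 fold change was 0.22 ± 0.11 (edgeR adjusted p = 0.269).

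Supernumerary subunits, which surround the core of complex I without carrying its catalysis, were nearly all above 0. All 9 of the peripheral arm were, with a median log2 fold change of 0.34, as were 19 of the 20 of the membrane arm, with a median of 0.17. NDUFA6 (chromosome 5, 113045787 to 113056779), a subunit that binds the mitochondrial acyl carrier protein, stood at 45.9, 31.8, 30.8 and 38.5 CPM on MEF and at 75.6, 39.6, 46.4 and 60.6 CPM in feeder-free conditions. Each line was higher in feeder-free cells, lines A and E were high in both conditions, and the groups overlapped. Its log2 fold change was 0.60 ± 0.22 (edgeR adjusted p = 0.152) and 0.57 ± 0.12 with the replicate block (edgeR adjusted p = 0.0132).

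Membrane arm subunits made up 4 of the 7 complex I genes called with the block. NDUFC1 (chromosome 17, 18388843 to 18392749) stood at 52.4, 29.5, 25.4 and 48.0 CPM on MEF and at 93.3, 36.3, 42.4 and 64.0 CPM in feeder-free conditions. NDUFB1 (chromosome 21, 56801816 to 56808727) stood at 54.5, 28.1, 21.2 and 49.7 CPM on MEF and at 91.8, 35.0, 37.7 and 61.3 CPM in feeder-free conditions. In both, line A in feeder-free cells was far above all other libraries, and C and D in feeder-free cells lay below A and E on MEF. The log2 fold changes of 0.57 and 0.55 with the replicate block had edgeR adjusted p-values of 0.0175 and 0.0231, whereas without the block they were 0.335 and 0.442. NDUFB4 (chromosome 1, 65318371 to 65324509), another subunit of that arm, stood at 53.0, 30.7, 27.7 and 57.3 CPM on MEF and at 84.7, 42.0, 42.5 and 63.5 CPM in feeder-free conditions. NDUFB9 (chromosome 14, 15553533 to 15560951), which binds a further copy of the acyl carrier protein, stood at 74.2, 59.7, 49.0 and 76.2 CPM on MEF and at 98.2, 71.4, 74.0 and 91.2 CPM in feeder-free conditions. NDUFA2 (chromosome 7, 51778419 to 51780743), a thioredoxin-fold subunit of the peripheral arm, stood at 43.6, 32.1, 26.8 and 45.3 CPM on MEF and at 62.1, 36.3, 37.7 and 59.2 CPM in feeder-free conditions. These 3 genes were higher in each line while their groups overlapped, with log2 fold changes of 0.47, 0.38 and 0.39 and edgeR adjusted p-values of 0.0313, 0.0457 and 0.0462 with the replicate block. Without it, the adjusted p-values were 0.42, 0.252 and 0.367.

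The study discusses 5 of these membrane arm subunits in its comparison of low and high oxygen, and its enrichment results for that comparison also list NDUFB4. NDUFC1, NDUFB1 and NDUFB4 passed with the replicate block, and NDUFA1, NDUFA3 and NDUFB3 passed neither fit between MEF and feeder-free cells. NDUFA1 had a log2 fold change of 0.23 ± 0.29 and NDUFA3 one of 0.22 ± 0.17. NDUFB3 had 0.15 ± 0.39, with log2 ratios of 0.48, 0.34, 0.01 and -0.28 by line, so that line E was lower where A and C were higher. NDUFA8, an intermembrane space subunit with cysteine motifs, had separate groups at 61.9, 54.9, 48.4 and 60.2 CPM on MEF and at 66.2, 62.3, 67.4 and 73.2 CPM in feeder-free conditions. Its log2 fold change was 0.26 ± 0.11 (edgeR adjusted p = 0.233, and 0.143 with the replicate block).

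**Figure D3:**
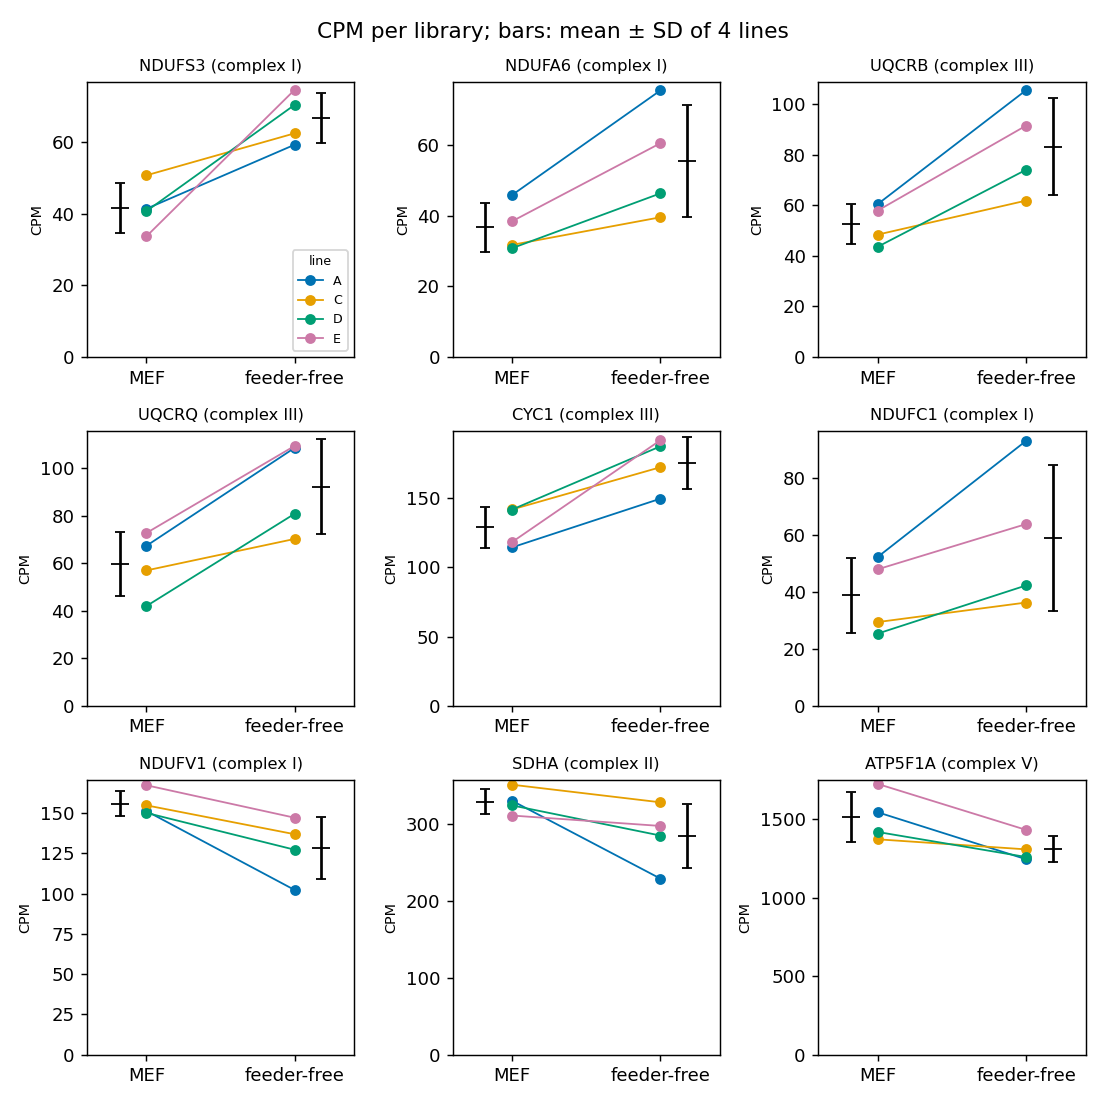
CPM of 9 named genes per library, from 0, with a line joining the MEF and the feeder-free library of each bESC line and bars for the mean ± SD of 4 lines. NDUFS3, UQCRB and CYC1 lie higher in every feeder-free library than in any MEF library, whereas NDUFA6, UQCRQ and NDUFC1 climb within each line but overlap, and NDUFV1, SDHA and ATP5F1A descend in each line.

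Complex II, succinate dehydrogenase, has no mitochondrially encoded subunit and divided by role. Its catalytic pair, the flavoprotein SDHA (chromosome 20, 71804563 to 71827918) and the iron-sulfur protein SDHB (chromosome 2, 135549028 to 135578116), had log2 fold changes below 0, and its membrane anchors SDHC (chromosome 3, 8177616 to 8208058) and SDHD (chromosome 15, 22397456 to 22409059) above 0. SDHA stood at 329.9, 351, 324 and 311 CPM on MEF and at 229, 328, 285 and 297 CPM in feeder-free conditions. Its 2 groups overlapped only through line C in feeder-free cells, and each line was lower. SDHB stood at 141, 109, 87.8 and 116 CPM on MEF and at 103, 104, 86.1 and 124 CPM in feeder-free conditions, lower in line A and higher in line E. SDHC stood at 56.9, 47.5, 47.7 and 69.02 CPM on MEF and at 85.2, 51.8, 67.0 and 73.4 CPM in feeder-free conditions. SDHD stood at 151, 125, 126 and 154 CPM on MEF and at 175, 145, 143 and 179 CPM in feeder-free conditions. Both anchors were higher in all 4 lines, and SDHD moved by nearly the same log2 ratio in each, at 0.21, 0.22, 0.19 and 0.21. None of the 4 passed: log2 fold changes were -0.21 ± 0.13, -0.12 ± 0.17, 0.33 ± 0.18 and 0.21 ± 0.13 in that order, with edgeR adjusted p-values of 0.409, 0.732, 0.333 and 0.402, and of 0.212, 0.55, 0.107 and 0.173 with the replicate block.

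Complex III, the cytochrome bc1 complex, had the highest median. Its 5 small subunits were all above 0, at a median log2 fold change of 0.39. UQCRB (chromosome 14, 67986641 to 67991358), a small subunit near the ubiquinone site, stood at 60.4, 48.4, 43.6 and 57.9 CPM on MEF and at 106, 61.9, 74.0 and 91.5 CPM in feeder-free conditions. The groups were separate, with line C in feeder-free cells only just above line A on MEF. UQCRB had a log2 fold change of 0.66 ± 0.18 (edgeR adjusted p = 0.0823) and of 0.65 ± 0.12 with the replicate block (edgeR adjusted p = 0.00804). UQCRQ (chromosome 7, 44447595 to 44448862), a small subunit that contacts cytochrome b, stood at 67.2, 56.9, 41.9 and 72.6 CPM on MEF and at 108, 70.2, 80.8 and 109 CPM in feeder-free conditions. Line D moved furthest, and the groups overlapped because feeder-free line C lay below line E on MEF. The log2 fold change of UQCRQ was 0.63 ± 0.21 (edgeR adjusted p = 0.121) and 0.63 ± 0.13 with the replicate block (edgeR adjusted p = 0.012).

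The subunits that carry electrons behaved otherwise by line. CYC1 (chromosome 14, 738121 to 740518), cytochrome c1, stood at 115, 142, 142 and 118 CPM on MEF and at 149.8, 172, 188 and 192 CPM in feeder-free conditions. UQCRFS1 (chromosome 18, 997334 to 1002098), the Rieske iron-sulfur protein, stood at 145, 152, 149.9 and 116 CPM on MEF and at 177, 176, 180.2 and 191 CPM in feeder-free conditions. In both genes all feeder-free libraries lay above all MEF libraries, and the ratio was highest in line E, which had the lowest ratio for 42 of the 82 members, with log2 ratios of 0.39, 0.28, 0.40 and 0.70 for CYC1 and 0.29, 0.21, 0.27 and 0.73 for UQCRFS1. CYC1 had a log2 fold change of 0.44 ± 0.13 (edgeR adjusted p = 0.0942, and 0.0262 with the replicate block), and UQCRFS1 one of 0.37 ± 0.12 (edgeR adjusted p = 0.116, and 0.058 with the block). The core proteins, relatives of the mitochondrial processing peptidase, were near 0, at 0.12 ± 0.16 for UQCRC1 and -0.02 ± 0.19 for UQCRC2. UQCRC2 stood at 122, 101, 107 and 181 CPM on MEF and at 149, 114, 118 and 122 CPM in feeder-free conditions, and its MEF library of line E was far above the rest, so that line E was lower in feeder-free cells and the other lines higher.

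Complex IV, cytochrome c oxidase, had 1 call with the block and none without. COX7C (chromosome 7, 86288769 to 86290937), a small membrane subunit, stood at 178, 95.5, 72.1 and 159 CPM on MEF and at 292, 109.9, 111 and 182 CPM in feeder-free conditions. Line A in feeder-free cells was far above the others and the groups overlapped widely. Its log2 fold change was 0.46 ± 0.38 (edgeR adjusted p = 0.528) and 0.43 ± 0.12 with the replicate block (edgeR adjusted p = 0.0428). The 10 main isoforms were all above 0, with a median of 0.23. COX6C, COX7A2 and COX6A1, which the study names for low against high oxygen, had log2 fold changes of 0.35 ± 0.32, 0.36 ± 0.31 and 0.23 ± 0.25, and edgeR adjusted p-values of 0.105, 0.0766 and 0.151 with the block.

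Several tissue-restricted isoforms of complex IV were at or near 0 counts in both conditions. COX4I1 (chromosome 18, 11758912 to 11767079), the general form of the regulatory subunit, stood at 264, 188, 162 and 237 CPM on MEF and at 286, 222, 223 and 262 CPM in feeder-free conditions. COX4I2, the form known from lung and from hypoxic cells, had 0, 4, 4 and 0 counts on MEF and 6, 2, 3 and 2 counts in feeder-free conditions. With so few counts no difference was detectable at this depth. COX6A2, the heart and muscle form, had 0 counts in all 8 libraries, which allows up to 3 counts in each, or 0.0293 to 0.0720 CPM. COX8B, another muscle form, had 0 counts except for 8 in feeder-free line D, and it overlaps NBAS. These limits cover counting error only. The 4 striated muscle markers summed to 1.72 to 2.17 CPM on MEF and 1.83 to 2.89 CPM in feeder-free cells.

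Restricted forms that were counted did not pass either. COX7A1, the muscle form, stood at 13.9, 7.19, 4.27 and 9.85 CPM on MEF and at 16.7, 6.08, 7.53 and 10.7 CPM in feeder-free conditions, with a log2 fold change of 0.22 ± 0.40, beside COX7A2, its general partner, at 190.4, 114, 93.7 and 193 CPM on MEF and at 289, 132, 138 and 201 CPM in feeder-free conditions. COX6B2, the testis form, stood at 36.2, 26.3, 23.0 and 17.8 CPM on MEF and at 28.3, 25.05, 25.5 and 31.6 CPM in feeder-free conditions, and moved by -0.35, -0.07, 0.15 and 0.83 by line. Its general partner COX6B1 had a log2 fold change of 0.17 ± 0.31, and COX8A one of 0.10 ± 0.17. COX7B2, also a testis form, had 80, 2, 15 and 72 counts on MEF and 63, 11, 83 and 21 counts in feeder-free conditions, and a log2 fold change of -0.53 ± 0.95 that changed to 0.02 ± 0.57 with the block. COX7A2L, which joins complexes III and IV in supercomplexes, was at -0.08 ± 0.29, and log2 ratios were 0.06, 0.07, 0.05 and -0.42, with line E alone lower.

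Complex V held values on both sides of 0 in its catalytic head and only values above 0 among its small membrane subunits. ATP5F1A (chromosome 24, 45841918 to 45850825), the alpha subunit, stood at 1544, 1372, 1419 and 1725 CPM on MEF and at 1245, 1308, 1259 and 1432 CPM in feeder-free conditions. Each line was lower in feeder-free cells, and the groups overlapped only because feeder-free line E lay above lines C and D on MEF. The log2 fold change was -0.21 ± 0.13 (edgeR adjusted p = 0.393, and 0.185 with the replicate block). ATP5F1B, the catalytic beta subunit, was at 0.11 ± 0.12. ATP5F1C, the gamma subunit of the rotor, had separate groups at 186, 150.5, 139.9 and 167 CPM on MEF and at 208, 190.1, 197 and 204 CPM in feeder-free conditions, with a log2 fold change of 0.31 ± 0.12 (edgeR adjusted p = 0.171, and 0.0658 with the block).

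Both complex V genes called with the block were higher in each line with overlapping groups. ATP5PF (chromosome 1, 10690997 to 10698961), coupling factor 6 of the peripheral stalk, stood at 131, 85.1, 79.8 and 126 CPM on MEF and at 178, 109, 121 and 149 CPM in feeder-free conditions. ATP5F1E (chromosome 13, 57357647 to 57361338), the epsilon subunit of the rotor, stood at 99.7, 56.3, 47.5 and 96.3 CPM on MEF and at 146, 67.1, 70.4 and 116 CPM in feeder-free conditions. Lines A and E were above C and D in either condition. ATP5PF had a log2 fold change of 0.41 ± 0.11 (edgeR adjusted p = 0.0297) and ATP5F1E one of 0.41 ± 0.11 (edgeR adjusted p = 0.0344), whereas without the block the adjusted p-values were 0.313 and 0.499. ATP5PF overlaps GABPA, which had a log2 fold change of -0.24.

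Within complex V, line E stood apart by its medians in the supernumerary membrane and stalk parts. Single genes there, ATP5PF and ATP5MJ, were still higher in line E (log2 ratios of 0.24 and 0.08). Low ratios in line E were also found in other complexes, as in UQCRC2 (-0.57) and COX7A2L (-0.42). The 5 supernumerary membrane subunits had median log2 ratios of 0.59, 0.19, 0.65 and -0.08 by line, and the 4 of the peripheral stalk 0.45, 0.17, 0.42 and -0.29. ATP5MF, subunit f, had the highest log2 fold change of the complex, 0.50 ± 0.31, with log2 ratios of 0.85, 0.35, 0.92 and -0.06 and an edgeR adjusted p of 0.0618 with the block. ATP5ME, subunit e, was at 0.43 ± 0.36, and ATP5IF1, the inhibitor of reverse ATP hydrolysis, at 0.22 ± 0.23. The 3 genes of the c-ring encode the same mature protein. ATP5MC1 stood at 60.4, 55.6, 48.4 and 73.0 CPM on MEF and at 73.8, 66.9, 77.7 and 80.1 CPM in feeder-free conditions. ATP5MC2 stood at 338, 251, 215 and 228 CPM on MEF and at 285, 257, 222 and 285 CPM in feeder-free conditions. ATP5MC3 stood at 439.6, 316, 292 and 410.5 CPM on MEF and at 497, 355, 403 and 452 CPM in feeder-free conditions. ATP5MC1 and ATP5MC3 were higher in each line and ATP5MC2 was lower in line A alone, and none passed (log2 fold changes of 0.33 ± 0.14, 0.02 ± 0.17 and 0.23 ± 0.17, edgeR adjusted p-values of 0.0844, 0.849 and 0.148 with the block).

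Summed over all 85 genes, respiratory chain transcripts took 12033, 9219, 8533 and 12116 CPM on MEF and 13481, 9981, 10204 and 12254 CPM in feeder-free conditions. Lines A and E held more than C and D in both conditions, and line E hardly moved. The mean was 10475 ± 1868 on MEF and 11480.2 ± 1681 CPM in feeder-free conditions (SD, n = 4). The sum was higher in all 4 lines, by log2 ratios of 0.16, 0.11, 0.26 and 0.02, while the difference in means was smaller than the spread between lines within a condition. Complex III was 923 ± 107 on MEF and 1146 ± 123 CPM in feeder-free conditions, and its sums were higher in all 4 lines, at 959, 848, 826 and 1057 CPM on MEF and 1269.8, 1008, 1079 and 1226 CPM in feeder-free conditions. Complex II was 636 ± 39.0 on MEF and 619 ± 41.7 CPM in feeder-free conditions, and complex V 4457 ± 708 on MEF and 4601 ± 479 CPM in feeder-free conditions.

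**Figure D4:**
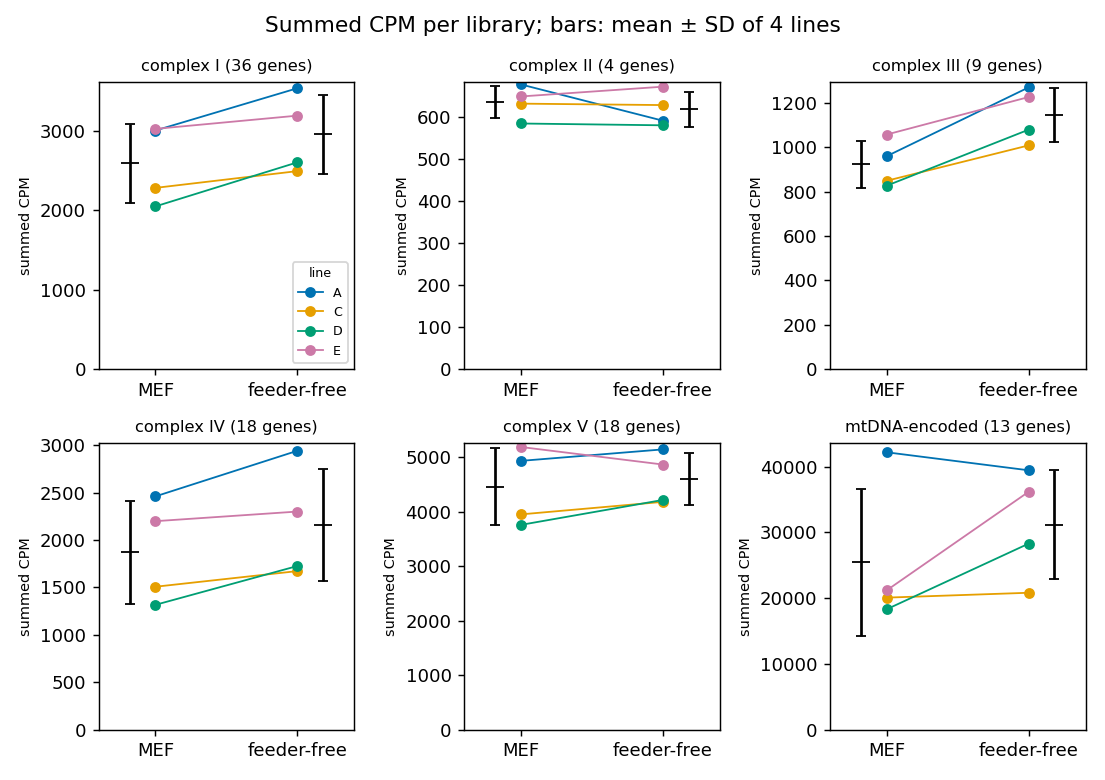
Summed CPM of each complex and of the 13 subunits encoded by mitochondrial DNA (mtDNA) per library, from 0, with a line joining the libraries of each bESC line and bars for the mean ± SD of 4 lines. Complex I, III and IV sums climb in each line, complex II descends most in line A, and line E descends in complex V.

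The 13 subunits encoded by mitochondrial DNA, partners of the nuclear genes in every complex but II, were compared next. They summed to 42171, 20073, 18305 and 21179.7 CPM on MEF and 39429.8, 20814, 28288 and 36172 CPM in feeder-free conditions. The MEF library of line A lay above every other library. The means were 25432 ± 11222 on MEF and 31176 ± 8343 CPM in feeder-free conditions. Their difference gave p = 0.429 (two-sided exact permutation test that ignores the pairing by line, n = 4 per condition, smallest possible p 0.0286). Median log2 ratios were -0.15, -0.12, 0.63 and 0.68 by line. Line E therefore held both the smallest median among nuclear genes and the largest among mitochondrial ones of the 4 lines. All 13 were higher in lines D and E, and 3 in line A and 4 in line C. None passed in the unpaired fit, where 10 had a log2 fold change above 0. ND1, a complex I subunit, was the 1 gene called with the block (0.55 ± 0.16, edgeR adjusted p = 0.0441), which as 1 of 13 is near the 7.67% of all tested genes. It stood at 3393, 1393, 1170.0 and 1584 CPM on MEF and at 3516, 1687, 2172 and 3127 CPM in feeder-free conditions. The shares of mitochondrial ribosomal RNA, 0.0521% to 0.183% of counts on MEF and 0.0267% to 0.0519% in feeder-free cells, and of the ribosomal gene RN18S1, 0.0654% to 0.463%, also differed between libraries, and their part in these values was not tested.

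**Figure D5:**
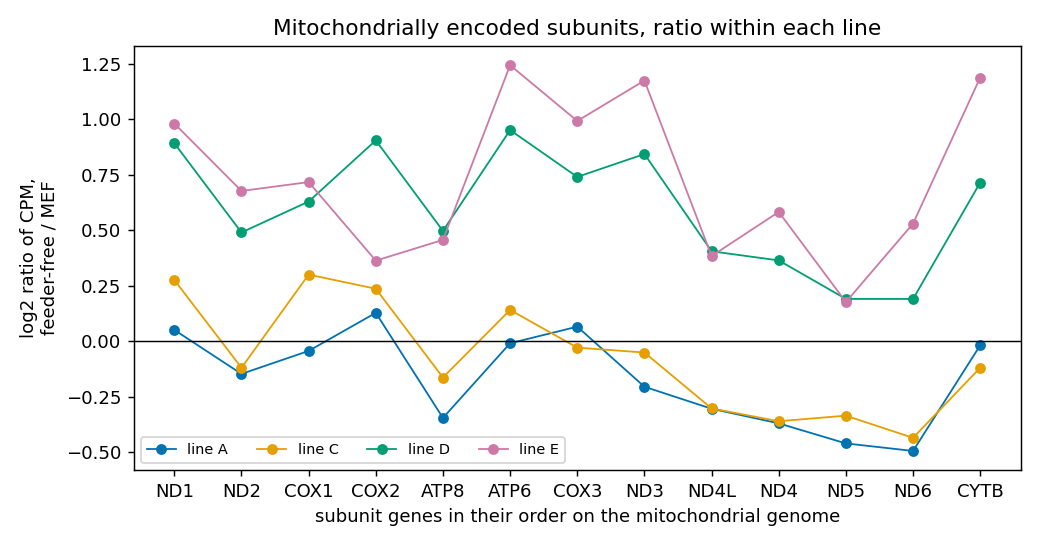
Log2 ratio of CPM, feeder-free over MEF, within each bESC line for the 13 subunit genes of mitochondrial DNA in their order on that genome. All points of lines D and E lie above 0, while those of lines A and C lie on both sides of it, lowest at ND6.

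Few genes that build the complexes were called. Of 16 complex I assembly factors, 10 had a log2 fold change above 0 and 3 were called higher with the replicate block, against 7.67% of all tested genes. They were NDUFAF8 (1.04, edgeR adjusted p = 0.00887), NDUFAF4 (0.73, 0.0116) and NDUFAF7 (0.61, 0.0355). Without it their edgeR adjusted p-values were 0.0505, 0.0509 and 0.0912. NDUFAF8 stood at 9.31, 11.9, 12.2 and 7.34 CPM on MEF and at 19.8, 15.3, 26.7 and 22.1 CPM in feeder-free conditions, and all 3 had groups that did not overlap, as 4 of the 16 did, against 6.21% of all tested genes. Of 24 complex IV assembly factors, the copper chaperone COX17, which the study also names for oxygen (0.69, edgeR adjusted p = 0.00943) and COA3 (0.43, 0.0457) were called with the block, which as 2 of 24 is near the 7.67% of all tested genes. No factor of complex II (4 genes), III (9) or V (5) was called in either fit, and the medians of the 5 lists lay between 0.11 and 0.26.

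Cytochrome c, the carrier between complexes III and IV, rose in either fit. CYCS (chromosome 4, 70735436 to 70738314), which the symbol rule misses, stood at 32.5, 37.9, 35.5 and 31.9 CPM on MEF and at 65.0, 62.5, 68.3 and 68.7 CPM in feeder-free conditions. All feeder-free libraries lay far above all MEF libraries. The log2 fold change was 0.94 ± 0.10 (edgeR adjusted p = 0.0233, and 0.00176 with the block). NDUFAB1, the acyl carrier protein that sits in complex I with NDUFA6 and NDUFB9, was at 0.40 ± 0.11 with the block (edgeR adjusted p = 0.0326, and 0.156 without it) and had separate groups.

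Regulators known to act on the nuclear subunits were mostly below 0, in 9 of 13, against 7784 of all 15744 tested genes. With the block 1 of the 13 was called lower and 1 higher, near the 8.12% and 7.67% of all tested genes. PPARGC1A, a coactivator of mitochondrial biogenesis, stood at 0.912, 0.817, 1.49 and 1.404 CPM on MEF and at 0.281, 0.565, 0.293 and 0.520 CPM in feeder-free conditions. It was lower in all 4 lines, with a log2 fold change of -1.50 ± 0.45 with the block (edgeR adjusted p = 0.0486, and 0.0816 without), on 14 to 72 counts per library. TFB2M, a mitochondrial transcription factor, was higher at 0.53 ± 0.14 (edgeR adjusted p = 0.0289 with the block and 0.0796 without). NRF1 and GABPA, transcription factors of many subunit promoters, were at -0.23 ± 0.11 and -0.24 ± 0.14, and TFAM at 0.08 ± 0.14. Of the genes known for the exchange of complex IV subunits in hypoxia, NDUFA4L2 was at -0.06 ± 0.60, and LONP1, the protease that degrades COX4I1, stood at 357, 359, 359 and 386 CPM on MEF and at 220.2, 289.7, 211 and 248 CPM in feeder-free conditions. LONP1 was lower in each line, with a log2 fold change of -0.60 ± 0.11 with the block (edgeR adjusted p = 0.0087, and 0.0509 without). It was the 1 gene called with the block of the 4 tested genes listed for that exchange, against 8.12% of all tested genes lower. Of these 4, 2 had log2 fold changes above 0 and 2 below.

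Gene span moved with the result. Members are short, with a median span of 7073 bp against 22914 bp, and 52 of the 82 belong to the shortest 3923 of all tested genes, whose median log2 fold change was 0.11 against -0.10 in the longest 3923. When each library's trend of counts with span was removed, the members' median went from 0.22 to 0.13, complex III from 0.39 to 0.28 and complexes I, II, IV and V to 0.12, 0.02, 0.13 and 0.12. With the replicate block added, NDUFS3, NDUFA6, NDUFC1, NDUFB1, UQCRB and UQCRQ were called higher, against 7.49% of all tested genes. That count is near the background and is no result about the members. Annotated neighbours overlap 21 members, 5 of the 13 called with the block among them, and the strand setting of the counting is not given in the sources used here, so reads of such pairs may be mixed. Processed copies of many of these genes are known from mammalian genomes, and how they shared reads was not tested.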

How the data were processed

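Raw counts per gene, as the authors deposited them, were used for 8 libraries of paired-end reads of 150 bases. According to the methods, the authors trimmed reads with Trimmomatic, aligned them to ARS-UCD2.0 with STAR, removed optical duplicates with Picard and alignments with a mapping quality under 30, counted with featureCounts, and took out of the counts of cells on MEF what a sample of MEF alone gave on the cow genome. The submitters' processing notes name Subread 1.6.2. The STAR version, the strand setting and whether reads or pairs were counted are not given in the sources used here. The methods name RNeasy kits and the sample records Trizol. All libraries carry the same batch label.

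Of 32640 genes, 3 held no values, and 0 columns of the table went unused. All 85 members matched the RefSeq table of ARS-UCD2.0, from which positions and gene spans come. Transcript lengths and sequences were not used here, so no level is compared between genes, and a planned search for promoter motifs was not run.

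Counts were fitted with edgeR 4.0.16 in R 4.3.3 (filterByExpr, TMM, glmQLFit and glmQLFTest) on condition alone, as the study's methods give no pairing, with Benjamini-Hochberg adjustment over 15744 genes. Calls were made at an adjusted p under 0.05, and the study's fold change of 1.5 was added where stated. Standard errors come from the log2 fold change and its F statistic, and log2 CPM used a prior count of 2. Fits with and without line as a term were also run on counts simulated from the replicate block fit with known changes. How well they recovered changes of the members' size is not given here.

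The line letter pairs the libraries, since each of the 4 lines was grown both ways. Deviations from the condition mean over tested genes correlated within lines at 0.582 (A), 0.557 (C), 0.664 (D) and 0.421 (E), and between lines at -0.523 to 0.249, so the fit with line as a term is printed beside each result whose call it changes. Each line was derived separately and gave 1 library per condition. No libraries were duplicates: among the 12 pairs within conditions, chi-square per degree of freedom was at least 40.8.

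The members, the lists of assembly factors, regulators and markers, and the tests were chosen with earlier results of these data known. Genes to name were members called in the fit on condition alone, the 10 smallest adjusted p-values with the replicate block and the same sign in all 4 lines, the highest and lowest log2 fold change of each complex, the isoform families, the SDH genes, members that the paper names for oxygen, and untested members. Other genes were named after their values were seen. Alternatives were RLE size factors, no scaling, library sizes without mitochondrial genes, other filters, DESeq2 1.42.0, limma-voom (limma 3.58.1), the replicate block, an offset for gene span, and leaving out libraries or lines.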

Additional observations from a re-analysis of the deposited data

Results flagged for a closer look

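Among 86 groups of 4 libraries examined (the CPM of 37 named members and the sums of the 5 complexes and of the mitochondrial subunits, in each condition), 1 held a library far from the other 3 by Dixon's criterion, where chance at 1 in 20 would give 4.3. It was the summed CPM of the 13 subunits encoded by mitochondrial DNA on MEF, where line A stood at 42171 CPM and the other lines between 18305 and 21180 CPM. In feeder-free cells line A was also the highest, at 39429.8 CPM, within a wider spread. No sum over nuclear subunits was set apart in this way.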

How the results depend on the processing

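The numbers of members called higher, lower and past both thresholds were 1, 0 and 1, and stayed so with RLE size factors, with library sizes without mitochondrial genes and with at least 10 counts in every library. No scaling, no filter, limma-voom and the gene span offset each gave 0 higher and 0 past both thresholds. Of all tested genes, 0.540%, 0.314%, 0.514% and 0.618% were called higher there. At an unadjusted p under 0.05, 14, 11, 8 and 6 members were higher in these fits. Shares of all tested genes at that level are not given for them, so these counts are no result about the members. DESeq2 gave 5 higher and 3 past both thresholds. The replicate block gave 13 and 3. The span offset with replicate block gave 6 higher and 1 lower, against 7.49% and 7.26% of all tested genes. Leaving out 1 library gave 0 to 1 higher and 0 to 1 past both thresholds, the call of NDUFS3 lasting only without feeder-free line A. In the other 7 of these fits at most 1 gene of all tested was called higher, against 265 (1.66%) without feeder-free line A, and the log2 fold change of NDUFS3 was 0.59 to 0.79 in the 8. Leaving out 1 line in the block gave 0 (without D) to 21 (without E) higher and 0 to 6 past both thresholds. DESeq2 on condition alone called NDUFS3, UQCRB, UQCRQ, CYC1 and UQCRFS1 higher, against 5.66% of all tested genes. In edgeR, the pairing changed the call for the genes called with the block other than NDUFS3. It changed no call from higher to lower. The cause of these changes was not tested.

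The complex III median was 0.24 without feeder-free line A and 0.26 without MEF line D, and ranged from 0.24 to 0.48 when 1 library was left out. The medians of complexes I, IV and V ranged from 0.11 to 0.33, 0.05 to 0.39 and 0.10 to 0.33, and the median over all members from 0.10 to 0.34. Sign changes were limited to 9 of 37 named and tested members, none of them called. UQCRC2 was at 0.022 without scaling, 6.3e-05 without a filter, 0.011 with limma-voom, 0.011 with the replicate block and 0.016 with the span offset and the block. COX7B2 was at 0.45 with limma-voom, 0.020 with the block and 0.11 with offset and block. ATP5MC2 was at -0.053 and -0.040 with the offset without and with the block, and COX8A at -0.00046 with the offset. Leaving out 1 library gave -0.12 to 0.19 for UQCRC2, -1.01 to 0.040 for COX7B2, -0.054 to 0.18 for ATP5MC2, -0.30 to 0.090 for COX7A2L, -0.23 to 0.35 for NDUFB3, -0.12 to 0.53 for COX7A1, -0.048 to 0.30 for COX6B2 and -0.070 to 0.39 for COX6B1. With the block, COX7B2 was at 0.34 without line A, and without line E the values were 0.76 for COX7B2, 0.21 for UQCRC2, 0.075 for COX7A2L, -0.042 for ATP5MC2, -0.078 for COX6B2 and -0.029 for COX8A.

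Passage, feeders, matrix and the removal of MEF reads differed together between conditions, and 4 lines per condition limit what the fits can call. The median standard error of a member's log2 fold change was 0.21 on condition alone and 0.12 with the replicate block, so changes of the size of the members' median, 0.22, could hardly be called singly in the former. Depth limited the 3 untested genes and COX7B2, with 2 counts in its lowest library, and it did not limit the 74 members with at least 1000 counts in every library.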

Other observations

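Subunits of one complex did not share one order of lines. CYC1, UQCRFS1 and NDUFS3 had their largest log2 ratio in line E (0.70, 0.73 and 1.15), as 12 of 82 members did, while ATP5PB, UQCRC2 and NDUFB5 had ratios of -0.70, -0.57 and -0.51 there and were above 0 in the other 3 lines. These 6 genes were chosen after their values were seen, and differences between lines were not tested, since each line has 1 library per condition.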
